A study of Homo sapiens with 6 samples.

Results

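Immediate early genes were followed in the nascent RNA of A375 cells with and without PRL3. The group was a list of 10 symbols, FOS, FOSB, FOSL1, JUN, JUNB, EGR1, ATF3, IER2, IER3 and MYC, each matched to 1 Ensembl identifier, and all 10 of them were found among the 58243 identifiers counted and among the 23884 genes tested. The rule used the symbols and no measured value. Of the 10, IER3 is not a transcription factor, and IER2 encodes a nuclear regulator of transcription. A375 is an established human melanoma cell line with mutant BRAF. The 6 libraries were of cells stably transfected with an empty vector (EV, 3 libraries, labelled B1, B2 and B3) or with a plasmid that expresses human HA-tagged PRL3 (PRL3, 3 libraries, labelled B9, B10 and B11), a phosphatase encoded by PTP4A3, and both groups were grown with serum and 100 µg/ml hygromycin B. All were given 500 µM 4-thiouridine (4sU) for 20 min, a uridine analogue through which newly made RNA can be pulled down and sequenced. The sources used here do not say whether either line was a clone or a pool, or whether the libraries of a group came from separate cultures, so p-values measure the spread between these libraries, which may be technical. Culture, pulldown or sequencing batch, if they followed the groups, cannot be told apart from PRL3.

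Immediate early genes are transcribed within minutes of a growth or stress signal, without new protein synthesis, because their promoters carry bound factors such as SRF and the ETS proteins that ERK and other kinases act on. Their mRNAs and proteins are short-lived, so a brief label of new RNA can follow changes in their output. The counts used here are of reads on exons, which splicing or some carried-over mRNA may affect. For that reason the paper moved its later analysis of nascent transcripts to reads in introns. In BRAF-mutant melanoma the ERK pathway is always on, and several of these genes are among its outputs. FOS, FOSB and FOSL1 encode partners of the JUN proteins in the dimeric factor AP-1, ATF3 encodes a stress-induced factor that can join JUN or repress on its own, EGR1 encodes a zinc finger factor, and MYC encodes a growth factor-induced regulator that binds DNA with MAX.

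The promoter windows searched differed in the exact motif letters they held. The 250 bases before the start were taken from RefSeq windows on GRCh38.p14, and 7 of the 10 genes were searched, all but FOSL1, IER3 and MYC. Both strands were searched for the CArG box bound by SRF, the AP-1 sites TGACTCA (TRE) and TGACGTCA (CRE), the EGR site GCGNGGGCG, the E-box CACGTG, the ETS site CCGGAA and the TATA box TATAAA. The printed windows are those of the gene with CArG boxes, both JUN genes on the list (JUN and JUNB), the higher of the FOS genes (FOSB) and of 1 of the lower genes (IER2), each 5′ to 3′ on the strand of the gene with the matches in capitals.
EGR1 (chr5:138465229-138465478, plus strand): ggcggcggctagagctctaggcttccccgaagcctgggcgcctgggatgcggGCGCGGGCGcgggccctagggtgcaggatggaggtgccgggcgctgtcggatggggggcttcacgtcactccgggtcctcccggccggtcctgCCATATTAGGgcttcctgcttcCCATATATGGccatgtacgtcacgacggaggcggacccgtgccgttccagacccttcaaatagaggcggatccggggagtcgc
FOSB (chr19:45467746-45467995, plus strand): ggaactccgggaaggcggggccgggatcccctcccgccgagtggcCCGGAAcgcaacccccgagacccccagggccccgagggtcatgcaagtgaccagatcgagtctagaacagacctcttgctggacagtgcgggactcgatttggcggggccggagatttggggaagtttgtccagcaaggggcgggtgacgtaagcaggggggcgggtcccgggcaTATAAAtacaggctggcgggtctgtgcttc
JUN (chr1:58784048-58784297, minus strand): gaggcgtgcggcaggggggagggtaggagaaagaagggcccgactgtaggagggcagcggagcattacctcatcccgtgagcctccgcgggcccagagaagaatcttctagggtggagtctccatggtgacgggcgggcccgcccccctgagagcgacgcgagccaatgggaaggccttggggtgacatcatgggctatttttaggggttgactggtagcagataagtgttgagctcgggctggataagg
JUNB (chr19:12791236-12791485, plus strand): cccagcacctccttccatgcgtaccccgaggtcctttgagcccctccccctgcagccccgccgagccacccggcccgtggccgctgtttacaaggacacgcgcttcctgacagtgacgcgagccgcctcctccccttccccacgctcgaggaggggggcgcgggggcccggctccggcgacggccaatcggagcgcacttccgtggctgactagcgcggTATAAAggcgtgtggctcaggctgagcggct
IER2 (chr19:13150161-13150410, plus strand): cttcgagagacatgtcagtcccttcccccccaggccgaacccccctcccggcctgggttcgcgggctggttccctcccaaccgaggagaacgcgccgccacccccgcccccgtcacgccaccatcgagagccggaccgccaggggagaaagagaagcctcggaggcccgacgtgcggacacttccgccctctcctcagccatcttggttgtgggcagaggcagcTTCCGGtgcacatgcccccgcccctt

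In EGR1 the capitals are, in order, an EGR site from 198 to 190 bases before the start and 2 CArG boxes, from 105 to 96 and from 83 to 74 bases before it. FOSB held an ETS site from 205 to 200 bases before the start and a TATA box from 30 to 25. JUNB held a TATA box from 31 to 26 bases before the start. IER2 held an ETS site from 26 to 21 bases before the start, on the opposite strand. JUN held none of the 7 motifs in these exact letters, which says only that the letters are not in this window. FOS, not printed, held a TATA box from 33 to 28 bases before its start. ATF3 has 2 windows, also not printed, and 1 of them held a TATA box from 230 to 225 bases before the start. Of all 35116 RefSeq promoter windows of this length, 1.16% held a CArG box, 4.2% a TRE, 1.65% a CRE, 8.41% an EGR site, 6.34% an E-box, 14.5% an ETS site and 10.7% a TATA box. No member window held a TRE, a CRE or an E-box. A match is a description and not a measured binding site. For every gene, an element may also lie outside the window or differ from the letters searched.

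Gene counts summed to 36532207 to 57952035 per library. Of the uniquely aligned reads, 28.7% to 41.1% in EV and 62.8% to 69.1% in PRL3 lay outside annotated exons of the sense strand, and TMM factors, which scale the libraries to each other, were 0.816 to 0.894 in EV and 1.12 to 1.25 in PRL3. The transfected gene PTP4A3 rose by 6.80 on the log2 scale (SE 0.25, adjusted p = 1.1e-08), as its labels say. Of the 7 melanocyte lineage markers listed, 3 passed the filter on low counts. SOX10 was at 18852 to 28364 normalized counts in EV and 10593 to 13992 in PRL3, and MITF at 1208 to 1492 and 1714 to 1809. PMEL was low in both groups, at 31.3 to 55.5 in EV and 23.8 to 60.0 in PRL3. TYR, TYRP1, DCT and MLANA, the enzymes and antigen of pigmented cells, were too low to test. Of 7 markers of other cell types, 5 were too low to test, EPCAM was at 2.44 to 17.2 normalized counts, and KRT14 was at 1083 to 1217 in EV and 352 to 614 in PRL3. The part of these marker differences in the results was not tested.

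Under TMM scaling the 10 genes did not move as a group. ATF3, FOSB and JUN rose in PRL3 cells, IER3 and IER2 fell, and FOS, FOSL1, JUNB, EGR1 and MYC did not pass the test (quasi-likelihood test of edgeR, p adjusted by Benjamini-Hochberg over all 23884 genes, threshold 0.05). That is 3 of 10 higher, where 20.0% of all tested genes were higher, and 2 of 10 lower, where 22.7% were lower. On counted reads alone 6 of the 10 were higher and 0 lower, where 39.8% and 12.9% of all tested genes were. On all uniquely aligned reads 1 was higher and 4 were lower, where 8.11% and 36.2% were. With an offset for GC content 5 were higher and 0 lower, a count for which no share over all tested genes is given. In bulk libraries, a change in every cell and a change in a share of the cells cannot be told apart. The median log2 fold change was 0.17 over the 10 genes, 0.11 over all tested genes and -0.15 over the 14443 protein-coding genes tested. For 4 of the 10 the EV and PRL3 ranges were separate. Every PRL3 library was above every EV library for FOSB, JUN and ATF3, as it was for 29.7% of all tested genes, and below for IER3, as for 26.6%. Raw counts ran from 560 (FOSB in EV B1) to 28078, so counting error was small beside the spread between libraries. With 3 libraries against 3, the exact permutation test given for single genes cannot go below 0.1.

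**Figure D1:**
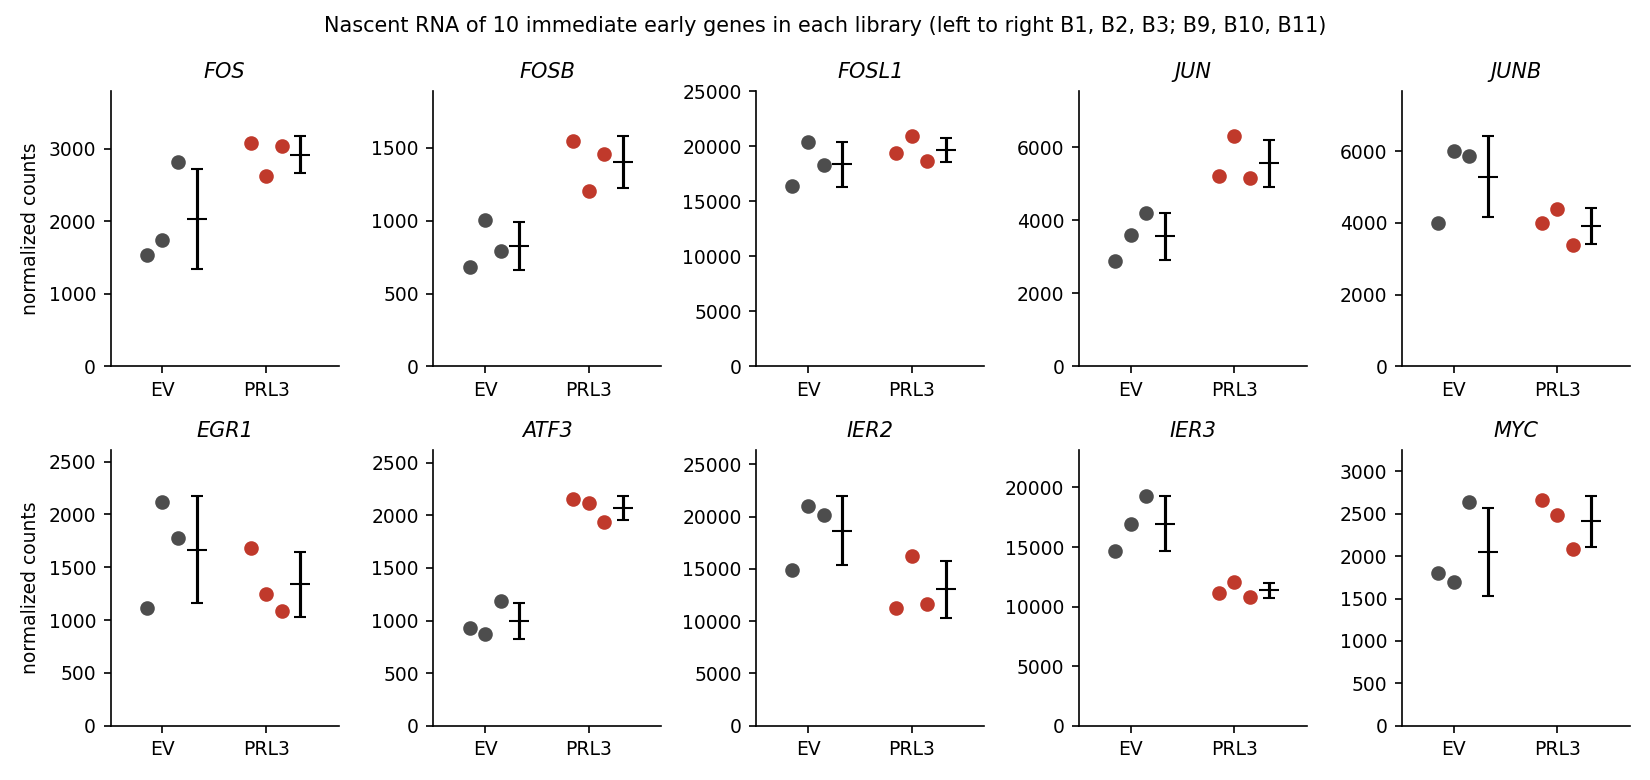
Normalized counts (vertical axis, from 0) of each of the 10 genes in each library, EV in grey and PRL3 in red, with the mean and SD (n = 3) as a bar beside the points. FOSB, JUN and ATF3 lay higher in every PRL3 library than in any EV library, IER3 lay lower, and the points of the other 6 genes overlapped.

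Of the FOS genes, FOSB rose, FOS was higher without passing the test, and FOSL1 was close to level. FOSB (ENSG00000125740, chr19:45467995-45475179, plus strand) had 682, 1005 and 795 normalized counts in EV B1, B2 and B3 and 1544, 1205 and 1455 in PRL3 B9, B10 and B11. No library of one group reached the other. Its mean went from 827 ± 164 (SD, n = 3) to 1401 ± 176 (SD, n = 3), a log2 fold change of 0.76 (SE 0.19, 95% interval 0.36 to 1.16, adjusted p = 0.00535, exact permutation p = 0.1, two-sided). FOSB can activate with JUN partners and had the lowest level per length of the 10 genes in EV. The opposite strand of the same locus holds ERCC1, a DNA repair gene, which moved the other way, from 10626 ± 1432 to 5454 ± 497 normalized counts (SD, n = 3), a fall of 0.96 on the log2 scale (SE 0.16, adjusted p = 0.000291). The reads were counted by strand.

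FOS (ENSG00000170345, chr14:75278826-75282230, plus strand), the founding AP-1 partner of JUN, had 1536, 1748 and 2825 normalized counts in the EV libraries and 3082, 2625 and 3045 in the PRL3 libraries. EV B1 and B2 were below every PRL3 library, and EV B3 lay within the PRL3 range. The log2 fold change was 0.52 (SE 0.21, 95% interval 0.069 to 0.97, adjusted p = 0.0604, exact permutation p = 0.2, two-sided). Without EV B3 it was 0.82 with an adjusted p of 0.0027. FOS passed the threshold in 9 of 17 alternative settings, in each of them as higher.

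FOSL1 (ENSG00000175592, chr11:65892049-65900573, minus strand) encodes FRA1, an AP-1 subunit that is abundant in cells with an active ERK pathway and is short of the activation domain that FOS carries. It had 16374, 20409 and 18308 normalized counts in EV and 19424, 20894 and 18693 in PRL3, and the ranges overlapped. It changed by a log2 fold of 0.10 (SE 0.15, adjusted p = 0.626), with a 95% interval of -0.22 to 0.42. FOSB counts over FOSL1 counts, a ratio that no scaling of the libraries can change, went from 0.0448 ± 0.00396 to 0.0717 ± 0.0122 (SD, n = 3), a factor of 1.60 (exact permutation p = 0.1, two-sided). This and the other ratios below were chosen after the values had been seen, and they are of counts without a correction for length.

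Of the JUN genes on the list, JUN rose and JUNB did not pass the test. JUN (ENSG00000177606, chr1:58776845-58784048, minus strand), the strong activator of the family, had 2888, 3601 and 4186 normalized counts in EV and 5217, 6294 and 5162 in PRL3, with no overlap. Its log2 fold change came to 0.64 (SE 0.17, 95% interval 0.28 to 1.01, adjusted p = 0.00755, exact permutation p = 0.1, two-sided). JUNB (ENSG00000171223, chr19:12791486-12793315, plus strand) is a weaker activator that competes with JUN for partners. It had 4006, 6013 and 5859 normalized counts in EV and 4002, 4382 and 3375 in PRL3. EV B1 lay within the PRL3 range and the other EV libraries were above all of them. On the log2 scale the change was -0.43 (SE 0.18, 95% interval -0.82 to -0.046, adjusted p = 0.0673, exact permutation p = 0.2, two-sided), and without EV B1 it was -0.60 with an adjusted p of 0.00671.

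The ratio of JUN to JUNB counts within a library was higher in every PRL3 library than in any EV library. JUN counts were 0.721, 0.599 and 0.714 of JUNB counts in the EV libraries and 1.30, 1.44 and 1.53 of them in the PRL3 libraries. The mean ratio went from 0.678 ± 0.0687 to 1.42 ± 0.114 (SD, n = 3), a factor of 2.10 (exact permutation p = 0.1, two-sided). Per length, JUNB had the higher mean in both groups. The third JUN gene, JUND, is not on the list and encodes the subunit usually present in resting cells. It had 3168, 4885 and 4510.1 normalized counts in EV and 1677, 1772 and 1418 in PRL3. It fell by 1.37 on the log2 scale (SE 0.18, adjusted p = 7.0e-05), and the ratio of JUN to JUND counts went from 0.859 ± 0.106 to 3.43 ± 0.284 (SD, n = 3). These ratios are not free of the trend with GC content described below. The GC content of the transcript was 56.1% for JUN, 64.9% for JUNB and 69.9% for JUND. With an offset for GC content the log2 fold change was 0.78 for JUN and 0.29 for JUNB, closer together than under TMM scaling alone.

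ATF3 (ENSG00000162772, chr1:212565334-212620777, plus strand), which marks responses to stress and dimerises with JUN proteins, had the largest log2 fold change of the 10 under TMM scaling. With an offset for GC content FOSB was further from 0 (1.01 against 0.91), and on all uniquely aligned reads IER3, IER2, JUNB and EGR1 were. ATF3 had 928, 872 and 1186 normalized counts in EV and 2155, 2119 and 1939 in PRL3, with a wide gap between the groups. The mean went from 995 ± 167 to 2071 ± 116 (SD, n = 3), a log2 fold change of 1.06 (SE 0.17, 95% interval 0.69 to 1.42, adjusted p = 0.000263, exact permutation p = 0.1, two-sided). It passed the threshold in all 17 alternative settings, with log2 fold changes of 0.59 to 1.54.

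EGR1 (ENSG00000120738, chr5:138465479-138469303, plus strand), whose promoter above holds the CArG boxes, had 1114, 2116 and 1773 normalized counts in EV and 1679, 1243 and 1088 in PRL3. The ranges overlapped, with the lowest library of all in PRL3 and the highest in EV. The fitted log2 change was -0.32 (SE 0.23, 95% interval -0.82 to 0.18, adjusted p = 0.291, exact permutation p = 0.4, two-sided), and without EV B1 it was -0.54 with an adjusted p of 0.041. Its relative EGR3 rose, from 680, 753 and 758 normalized counts to 1881, 2056 and 1581 (log2 fold change 1.33, SE 0.17, adjusted p = 4.4e-05). EGR3 counts over EGR1 counts went from 0.464 ± 0.131 to 1.41 ± 0.269 (SD, n = 3).

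The 2 IER genes on the list were both called lower under TMM scaling, and both calls were lost on counted reads alone and with an offset for GC content. IER3 (ENSG00000137331, chr6:30743199-30744548, minus strand), a survival factor that is a substrate of ERK, had 14640.1, 16964 and 19308 normalized counts in EV and 11152, 12079 and 10822 in PRL3, with no overlap. Its fitted log2 fold change was -0.58 (SE 0.15, 95% interval -0.91 to -0.25, adjusted p = 0.00798, exact permutation p = 0.1, two-sided). The call was lost without PRL3 B11, where the value was -0.54 and the adjusted p 0.0537. IER2 (ENSG00000160888, chr19:13150411-13154911, plus strand), a nuclear regulator induced by serum, had 14851, 21015 and 20132 normalized counts in EV and 11306, 16202 and 11689 in PRL3. PRL3 B10 was above EV B1, and the other libraries kept to their group's side. In the fit its log2 fold change was -0.51 (SE 0.19, 95% interval -0.92 to -0.11, adjusted p = 0.0394, exact permutation p = 0.2, two-sided). This call rested on single libraries, since the adjusted p was 0.12 without EV B2, 0.0783 without EV B3, 0.166 without PRL3 B9 and 0.171 without PRL3 B11. It was also lost with upper-quartile scaling, with protein-coding genes only and with an offset for transcript length.

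MYC (ENSG00000136997, chr8:127735434-127742951, plus strand) had 1804, 1696 and 2642 normalized counts in EV and 2665, 2491 and 2079 in PRL3. EV B3 lay among the PRL3 libraries and the other EV libraries below them. The estimated log2 change was 0.24 (SE 0.19, 95% interval -0.17 to 0.64, adjusted p = 0.339, exact permutation p = 0.3, two-sided), and without EV B3 it was 0.45 with an adjusted p of 0.0496. Leaving out 1 library thus changed the number of genes called on the list, to 4 lower without EV B1, to 1 lower without EV B2, EV B3 or PRL3 B9, to 0 lower without PRL3 B11 and to 5 higher without EV B3. The shares of all tested genes called in those fits are not given.

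How far each gene moved depended on what the libraries were scaled to. Scaling to counted reads alone moved the median over all tested genes from 0.11 to 0.60 on the log2 scale, and 39.8% of them were then higher and 12.9% lower. On that scale 6 of the 10 genes were higher and 0 lower, JUNB was at 0.053 and EGR1 at 0.18, both turned in direction and not called, and IER3 was at -0.095. Scaling to all uniquely aligned reads moved the median to -0.37 (23577 genes tested, 8.11% higher and 36.2% lower), and 1 of the 10 genes, ATF3, was higher and 4 were lower, namely IER3, IER2, JUNB and EGR1. On that scale FOSB was at 0.27 and JUN at 0.18, neither of them called, and FOSL1 and MYC turned in direction, to -0.38 and -0.23, without passing the test.

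A comparison within each library needs no scaling between libraries. Relative to the mean log2 normalized count of the 10 genes in the same library, ATF3 was 0.91 higher in PRL3 than in EV, FOSB 0.61, JUN 0.49 and FOS 0.40, and MYC was at 0.095 and FOSL1 at -0.058, nearest to the mean. On the same measure EGR1 was lower by 0.46, JUNB by 0.58, IER2 by 0.68 and IER3 by 0.73. Every PRL3 library was above every EV library for FOSB, JUN and ATF3 and below for JUNB, IER2 and IER3, and each of these 6 had an exact permutation p of 0.1, two-sided. These values sum to 0 over the 10 genes by construction, so a rise of some sets a fall of others. They describe unequal changes among the genes, and not which of them stood still. Like the ratios above, they are not free of the trends with GC content and transcript length described below.

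**Figure D2:**
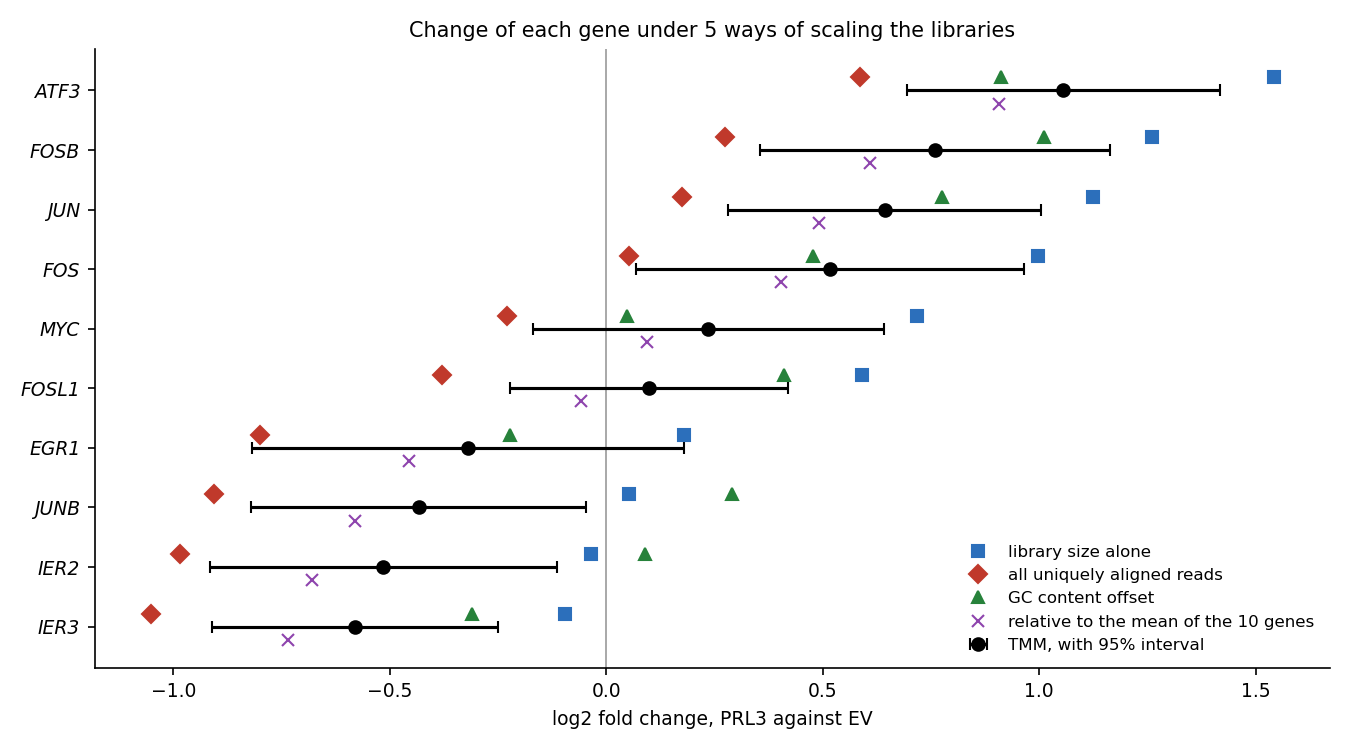
Log2 fold change of PRL3 against EV (horizontal axis) for each gene under TMM scaling (black, with its 95% interval), scaling to counted reads alone (blue), to all uniquely aligned reads (red), TMM with an offset for GC content (green), and relative to the mean of the 10 genes (purple cross). ATF3 was above 0 in all 5, from 0.59 to 1.54, whereas JUNB ran from -0.91 to 0.29.

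The transcripts of these genes share features that their choice did not use, and over all protein-coding genes GC content and transcript length moved with the change. By the canonical GENCODE transcript, all 10 genes had a higher GC content than the median of 48.6% over protein-coding genes tested, from 48.8% in MYC and 50.4% in ATF3 to 63.0% in IER2 and 64.9% in JUNB. They also had few exons. JUN and JUNB have 1 exon, a class that makes up 2.94% of protein-coding genes tested, EGR1, IER2 and IER3 have 2, and none has more than 4, against a median of 9. The canonical transcripts of 8 of the 10 were shorter than the median of 3349 bases, all but FOSB and MYC. The AU-rich pentamer ATTTA, a feature of short-lived mRNAs, occurred 6 times in the canonical transcripts of IER3 and MYC, 5 times in FOS, 3 times in FOSB, JUN and ATF3, 2 times in JUNB and EGR1, 1 time in FOSL1 and 0 times in IER2, where the median over protein-coding genes was 3, so it was not a feature the 10 shared.

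Over all protein-coding genes tested, split into 5 equal groups by GC content, the median log2 fold change went from 0.11 in the lowest group through 0.041, -0.016 and -0.30 to -0.76 in the highest, and the share called lower from 15.3% to 54.4%. FOSL1, JUNB and IER2 were in the highest group and FOS, FOSB, JUN, EGR1 and IER3 in the next. JUN, FOSB and FOS were thus above the median of genes with a GC content like theirs by more than they were above all genes. JUNB and IER2, which were at -0.43 and -0.51, were above the median of their group. In a fit with an offset for GC content, added after seeing the data, IER2 was at 0.090 (adjusted p = 0.584) and JUNB at 0.29 (adjusted p = 0.0711), both turned in direction, and IER3 was at -0.31 (adjusted p = 0.0509). FOSB was at 1.01, ATF3 at 0.91 and JUN at 0.78 in that fit, and FOS (0.48, adjusted p = 0.0369) and FOSL1 (0.41, adjusted p = 0.0126) passed the threshold. The count became 5 higher and 0 lower, with no share over all tested genes to set beside it. Neither IER2 nor IER3 was thus called lower with the offset, and ATF3, FOSB and JUN were called higher with and without it.

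Transcript length gave a trend of like size. Over protein-coding genes in 5 equal groups by canonical length, the median log2 fold change was -0.73 in the shortest and 0.15 in the longest. IER3 and FOSL1 were in the shortest group, and at -0.58 and 0.10 both were above its median. With an offset for length, also added after seeing the data, IER2 was at -0.35 (adjusted p = 0.134) and IER3 at -0.43 (adjusted p = 0.0309). ATF3, FOSB, JUN and FOS were called higher in that fit, so the count was 4 higher and 1 lower, again with no share over all tested genes beside it.

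**Figure D3:**
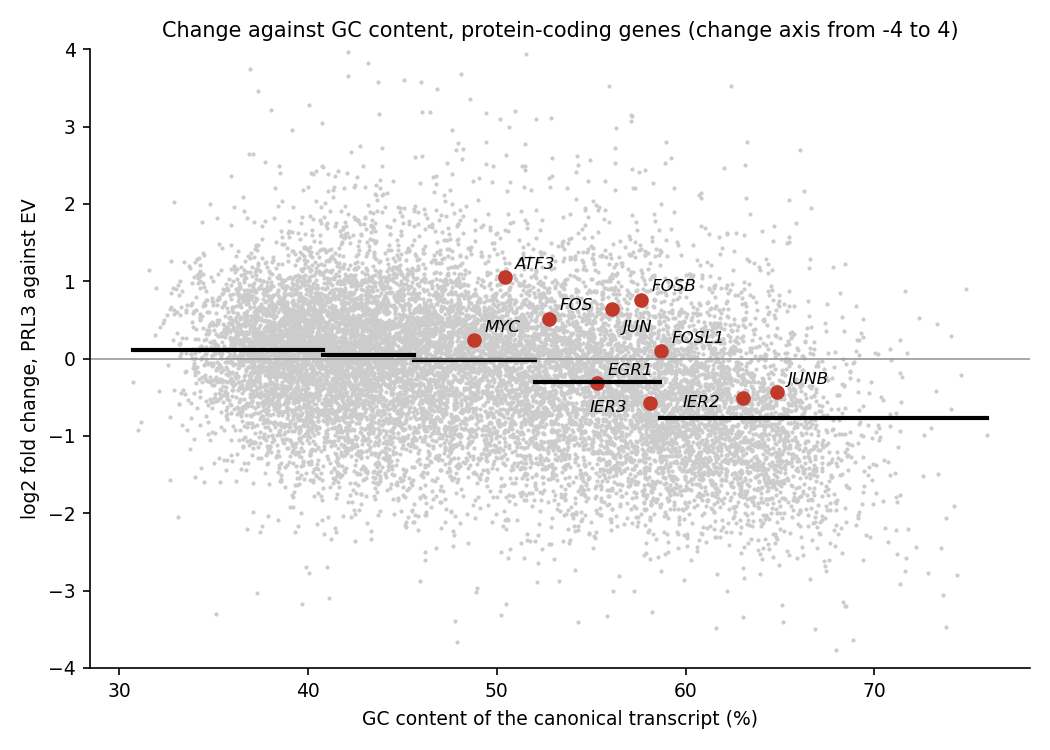
Log2 fold change of PRL3 against EV (vertical axis) against the GC content of the canonical transcript in percent (horizontal axis) for protein-coding genes (grey), with the 10 genes in red and the median of each of 5 equal groups by GC content as a black line. The medians drop from 0.11 to -0.76, FOSB and JUN lie above the line of their group, and JUNB and IER2 lie slightly above theirs.

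The estimated spread between libraries differed from gene to gene, and for most of the genes it was larger in EV than in PRL3. Each estimate rests on 3 libraries per group, and differences in spread between genes were not tested. Within groups, the SD of log2 normalized counts was 0.13 for FOSL1, 0.15 for IER3, 0.18 for ATF3, 0.22 for JUN and 0.24 for FOSB, and it was 0.27 for JUNB, 0.28 for IER2 and MYC, 0.34 for FOS and 0.41 for EGR1. The median over all tested genes was 0.32, a value raised by low-count genes. The edgeR estimate of variation beyond counting error at a gene's own level, the biological coefficient of variation, ran from 13.5% for FOSL1 to 20.5% for EGR1, where the trend for genes of the same levels ran from 15.1% to 17.4%. EGR1 (20.5% against a trend of 16.7%) and FOS (18.5% against 15.7%) stood furthest above it, while FOSL1, IER3, ATF3 and FOSB lay below it.

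In EV, the highest library held 1.90 times the EGR1 and 1.84 times the FOS of the lowest. In PRL3 these factors were 1.54 for EGR1 and 1.17 for FOS. For 9 of the 10 genes, all but IER2, the SD was larger in EV than in PRL3, as it was for 74.6% of all tested genes. Some libraries held the lowest value for most of the genes. EV B1 was the lowest EV library for 8 of the 10, against 35.1% of tested genes, while the highest was EV B3 for FOS, JUN, ATF3, IER3 and MYC and EV B2 for the other 5. PRL3 B11 was the lowest PRL3 library for 7 of the 10, against 34.1%. The highest PRL3 library was B9 for 5 genes and B10 for the other 5.

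**Figure D4:**
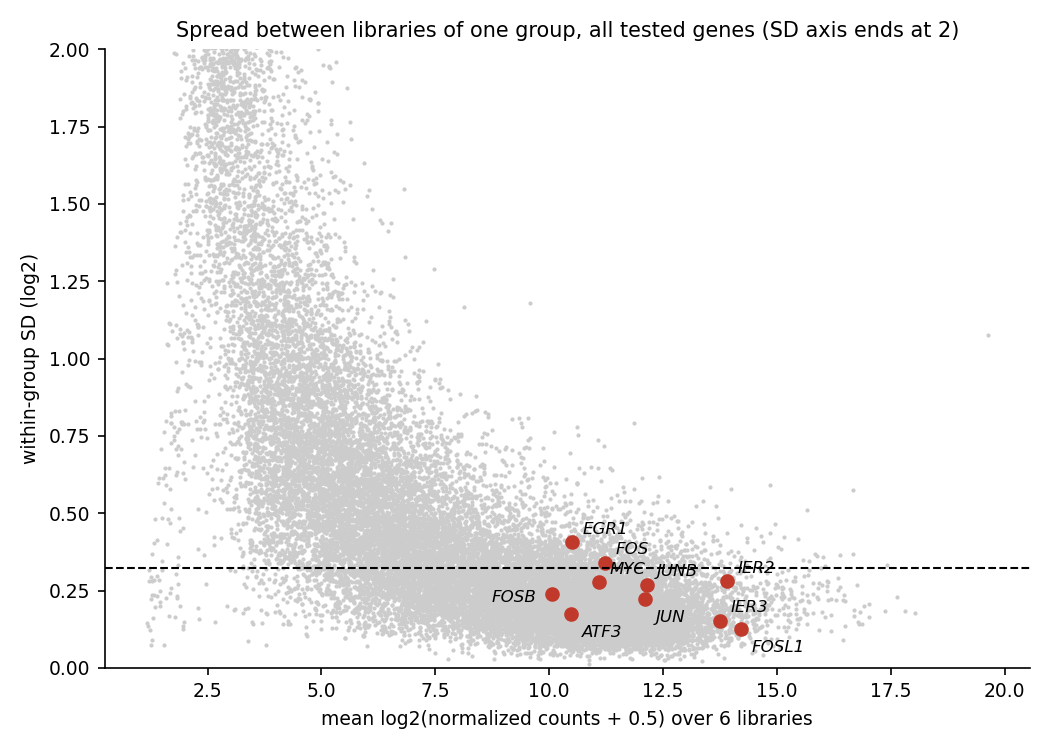
Within-group SD of log2 normalized counts (vertical axis) against mean log2 normalized count (horizontal axis) for all tested genes (grey) and the 10 genes (red), with the median SD of 0.32 as a dashed line. EGR1 and FOS lie above the line and the other 8 genes below it, FOSL1 lowest at 0.13.

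The genes differed far more in level than in change. Levels were compared as CPM, the count scaled to the effective library size, per kilobase of canonical transcript. In EV the order was IER3 (291 ± 40.1), FOSL1 (229 ± 25.2), IER2 (188 ± 33.5), JUNB (61.4 ± 13.0), JUN (23.2 ± 4.24), FOS (20.5 ± 6.98), MYC (11.7 ± 2.95), EGR1 (11.3 ± 3.45), ATF3 (10.9 ± 1.83) and FOSB (4.65 ± 0.921; all SD, n = 3). The libraries of neighbours overlapped for IER3 and FOSL1, FOSL1 and IER2, JUN and FOS, MYC and EGR1, and EGR1 and ATF3, so those orders are not settled. In PRL3 FOSL1 came first (245 ± 14.0), ahead of IER3 (195 ± 11.2) and IER2 (131 ± 27.4), and the ranges of these 3 did not touch. JUNB (45.5 ± 5.90) and JUN (36.2 ± 4.16) overlapped there, FOS followed (29.4 ± 2.56), and ATF3 (22.7 ± 1.27) stood above MYC (13.8 ± 1.72), EGR1 (9.05 ± 2.07) and FOSB (7.88 ± 0.990), the last pair overlapping. With all annotated exons as the length in place of the canonical transcript, only MYC and EGR1 swapped places.

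Other immediate early genes were described from a list of 30 such genes, all tested, that holds nuclear receptors, phosphatases and secreted proteins of the same response. Of these, 12 were higher and 3 lower, which is 40% and 10% beside 20.0% and 22.7% of all tested genes, with a median log2 fold change of 0.38 beside 0.11 over all tested genes. The list was chosen with earlier results of these data known. The 4 with the smallest p were IER5L, DUSP5, KLF6 and CCN1. KLF6, a zinc finger factor, went from 3973, 3905 and 6996 normalized counts to 11554, 13830.3 and 12632, a log2 fold change of 1.35 (SE 0.21). DUSP5, a nuclear ERK phosphatase, rose by 1.32 (SE 0.19), and CCN1, a secreted matrix protein controlled by YAP and SRF, by 1.15 (SE 0.20). IER5L fell by 1.47 (SE 0.19) and has a GC content of 65.0%. The count depended on scaling. It was 24 higher and 1 lower on counted reads alone, where 39.8% and 12.9% of all tested genes were. It was 3 higher and 6 lower on all uniquely aligned reads, where 8.11% and 36.2% were. Without PRL3 B10 7 were higher, and without EV B2 or PRL3 B9 1 was lower.

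Of the other AP-1 and ATF genes, 15 of 16 were tested (all but BATF), and 2 were higher and 4 lower, or 13.3% and 26.7%, near the 20.0% and 22.7% of all tested genes, with a median log2 fold change of -0.0083. After JUND, the smallest p belonged to FOSL2, which encodes FRA2 and rose by 0.57 (SE 0.15), to CREM, a cAMP-responsive factor that fell by 0.65 (SE 0.18), and to MAFG, a small MAF protein that fell by 0.59 (SE 0.16). FOSL2 had 6320, 7351 and 7882 normalized counts in EV and 9917, 11762 and 10237 in PRL3. Among the 5 other EGR and NAB genes, EGR3 rose and NAB2 fell. NAB2, a corepressor that binds EGR proteins and is itself induced by them, went from 5943, 8089 and 5806 normalized counts to 2219, 3284 and 2553, by -1.30 on the log2 scale (SE 0.19, GC content 60.9%). EGR2 (-0.48), EGR4 (0.11) and NAB1 (0.20) did not pass the test, with at most 73.4 normalized counts in any library for EGR2 and 28.3 for EGR4.

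The kinases and factors upstream of these genes were tested in all 16 cases, and 2 were higher and 4 lower (median 0.027), or 12.5% and 25%, near the 20.0% and 22.7% of all tested genes. MAPK3, which encodes the kinase ERK1, fell by 1.49 on the log2 scale (SE 0.19), and the ETS factor gene ELK1, an ERK target that acts with SRF, by 0.85 (SE 0.16). RPS6KA5, which encodes the histone kinase MSK1, rose by 1.05 (SE 0.18). Their transcripts had a GC content of 61.0% for MAPK3, 57.4% for ELK1 and 38.4% for RPS6KA5. The 10 genes that ERK signalling induces to restrain or relay it gave 5 higher and 1 lower (median 0.37), or 50% and 10% beside 20.0% and 22.7% of all tested genes. This count is given for TMM scaling only. Of these genes, SPRED2 rose by 0.74 (SE 0.17), DUSP4 by 0.70 (SE 0.17) and SPRY2 by 0.60 (SE 0.19), all inhibitors of the pathway. ETV4, an ETS factor, fell by 1.11 (SE 0.16). The GC content was 50.9% for SPRED2, 51.4% for DUSP4, 47.9% for SPRY2 and 60.6% for ETV4. SPRY2 had 17685, 17689 and 27308 normalized counts in EV, again highest in B3, and 28905, 35203 and 30952 in PRL3.

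**Figure D5:**
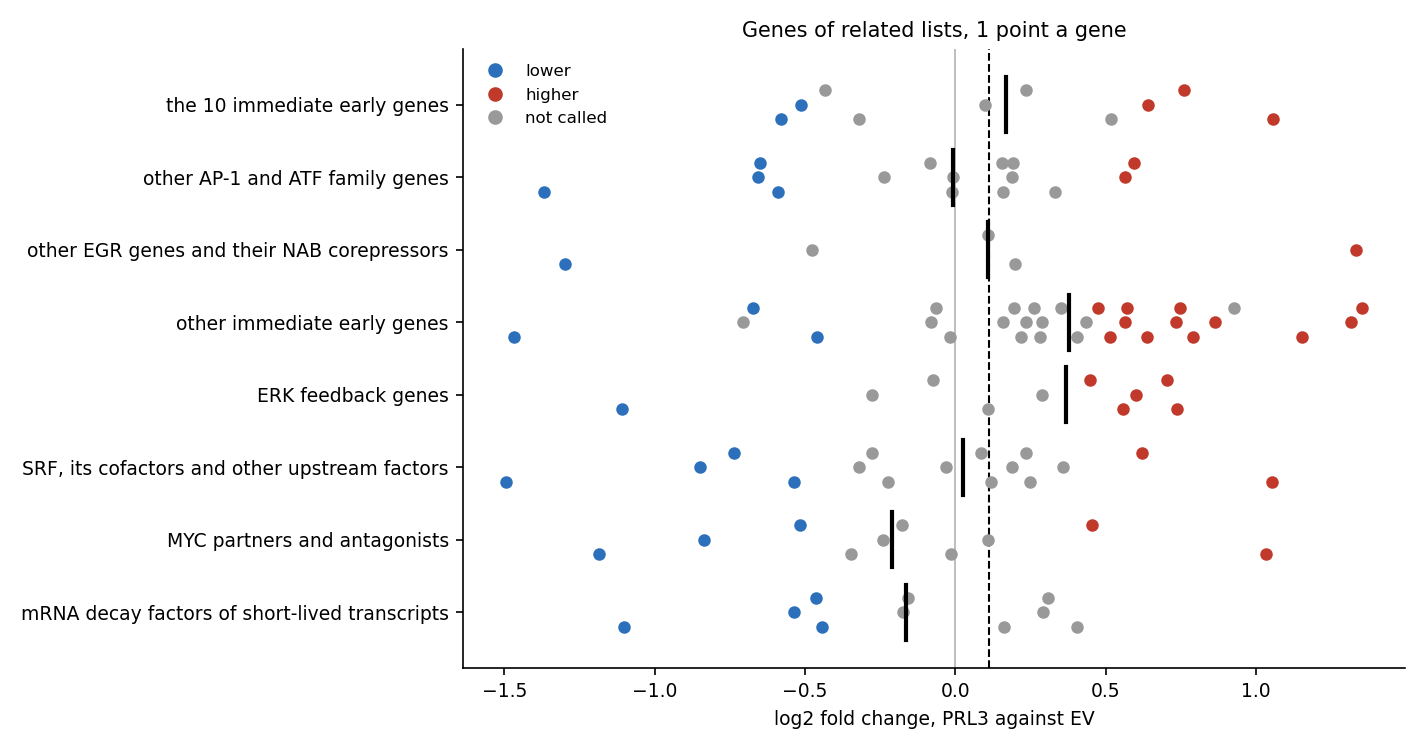
Log2 fold change of PRL3 against EV (horizontal axis) for each tested gene of the 10 immediate early genes and 7 related lists (rows), red where higher, blue where lower and grey where not called, with each list's median as a bar and the median of all tested genes, 0.11, as a dashed line. The medians run from -0.21 for the MYC partners to 0.38 for the other immediate early genes.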

How the data were processed

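Nascent RNA was sequenced from 6 A375 libraries. The authors checked reads with FastQC 0.11.3, aligned them to GRCh38 with STAR 2.5.1b and counted them per gene by strand with htseq-count 0.6.1, and the deposited values are these raw counts, without normalization. Symbols and transcripts came from GENCODE release 44, on the same build but of a later release, and 57532 of 58243 identifiers matched. The comparison was made with edgeR 4.0.16 in R 4.3.3 (TMM scaling, filterByExpr by group, 23884 genes kept, quasi-likelihood test, Benjamini-Hochberg adjustment, threshold 0.05). SEs were derived from the F statistic, and 95% intervals are not adjusted. To give normalized counts, each library was scaled from its effective size to the mean of all effective sizes, and 0.5 was added before logs. Depth was 36532207 to 57952035 counts per library. Mean chi-square per gene between libraries was at least 24.7, more than repeat counting of 1 library gives. The study used DESeq2, run here (1.42.0) as an alternative, as were limma-voom (3.58.1), other scalings and filters, protein-coding genes only, an adjusted p of 0.01 and leaving out each library. Offsets for GC content and transcript length, fitted by lowess, were added after seeing the data.

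The steps were tested on simulated data. The genes and lists were chosen with earlier results of these data known. Beside the 10 genes, the text names at most 4 genes of each list, those with the smallest unadjusted p, all genes of lists with at most 5, PTP4A3, genes on the opposite strand, and the 2 genes whose profile over the libraries was nearest to each of FOS, JUN, EGR1 and MYC. A gene that this rule would name is left out here, and ZFP36L1 is named outside the rule, chosen after its value had been seen. Some lists share genes, such as SRF, ZFP36 and PHLDA1.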

Additional observations from a re-analysis of the deposited data

How the results depend on the processing

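The number of the 10 genes called lower (2) was 1 with upper-quartile scaling, with protein-coding genes only, with the length offset and at an adjusted p of 0.01, 0 on counted reads alone and with the GC offset, and 4 on all uniquely aligned reads. Leaving out each library gave 0 to 4. The number called higher (3) was 6 on counted reads alone, 1 on all uniquely aligned reads and 5 with the GC offset, and 3 to 5 on leaving out each library. It was 4 with upper-quartile scaling, limma-voom, no low-count filter, at least 10 counts in every library, protein-coding genes only and the length offset. Of the 30 other immediate early genes, the number lower (3) was 1 with upper-quartile scaling, on counted reads alone, with either offset and at an adjusted p of 0.01, 6 on all uniquely aligned reads, and 1 to 3 on leaving out each library. The number higher (12) was 24 on counted reads alone, 3 on all uniquely aligned reads, 7 at an adjusted p of 0.01, and 7 to 14 on leaving out each library. It was 17 with upper-quartile scaling, 18 with protein-coding genes only and 15 with either offset. With limma-voom, no low-count filter or at least 10 counts in every library it was 13. Directions turned for JUNB (0.0533) and EGR1 (0.18) on counted reads alone, for FOSL1 (-0.38) and MYC (-0.23) on all uniquely aligned reads, and for JUNB (0.29) and IER2 (0.0905) with the GC offset. The cause of these shifts was not tested. Shares of all tested genes called are given only for TMM scaling, counted reads alone and all uniquely aligned reads. DESeq2 also called JUNB (-0.46, adjusted p = 0.0474). No paired analysis was possible because B1 to B3 and B9 to B11 have no number in common. Depth did not limit the 10 genes, the lowest count being 560.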

Other observations

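Of 11 genes of MYC partners and antagonists, 10 were tested (all but MYCN), and 3 were lower and 2 higher, or 30% and 20%, near the 22.7% and 20.0% of all tested genes, with a median log2 fold change of -0.21. MXD4, which encodes a repressor that competes with MYC for MAX, went from 1376, 2044 and 1719 normalized counts in EV to 672, 882 and 706 in PRL3, a fall of 1.18 on the log2 scale (SE 0.19). MXD1, another repressor of that family, rose by 1.03 (SE 0.18), from 678, 604 and 853 normalized counts to 1412, 1485 and 1478. MXD3 fell by 0.84 (SE 0.19) and MLX by 0.52 (SE 0.15). The GC content of these transcripts was 63.5% for MXD4, 65.6% for MXD3, 49.9% for MLX and 42.5% for MXD1.

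Factors that act on the decay of short-lived mRNAs, not all of which promote it, gave 4 lower and 0 higher of 10, where 22.7% and 20.0% of all tested genes were. KHSRP, which binds AU-rich elements, fell by 1.10 on the log2 scale (SE 0.17), HNRNPD, which encodes AUF1, by 0.54 (SE 0.16), CNOT1, the scaffold of the main deadenylase, by 0.46 (SE 0.15), and EXOSC10, a nuclear exosome nuclease, by 0.44 (SE 0.15). The list's median was -0.16, near the -0.15 of protein-coding genes. In edgeR's test 0 were called higher, and ZFP36L1 was nearest, at 0.31 (adjusted p = 0.097), with every PRL3 library above every EV library.

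Of the genes that overlap the 10 on the opposite strand, HOOK2 at JUNB (0.073), HCG20 (0.78) and IER3-AS1 (-1.02) at IER3 and ENSG00000267598 at IER2 (0.081) did not pass the test, and CASC11 at MYC had 0 to 13 reads and was not tested.

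The genes nearest in profile over the 6 libraries, by the root mean square distance of centred log2 normalized counts, were TTC41P (0.0506) and STRADA (0.0633) for FOS, INAVA (0.0468) and ZNF697 (0.0473) for JUN, MYCL (0.0792) and TCF7L1 (0.0849) for EGR1, and GABRE (0.0392) and ZNF594-DT (0.0694) for MYC. These were picked from all tested genes on 6 libraries, and say nothing of a shared function or control.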
